A study of Rattus norvegicus with 12 samples.

Results

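The genes described here are those of the interferon response and of antigen presentation, 29 listed genes together with every gene of the rat major histocompatibility complex whose symbol starts with RT1-. They were found through the array annotation, taking only probe sets that name 1 gene. All 29 listed genes had a probe set (35 in all), and 18 RT1 genes added 31 probe sets, giving 47 genes of the 14214 that a probe set names alone, and 66 of the 31099 probe sets on the array. Another 6 probe sets name several genes including an RT1 gene and were left out. Of the 66 probe sets, 59 were bright enough to be tested (46 genes). The 7 dim ones were 1 or 2 of the probe sets of Tap1, RT1-A3, RT1-CE5 and RT1-Ba, and the single probe set of Ifih1, the only gene left with no test.

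Renal cortex of male rats was measured on 12 arrays, 1 per sample, in 4 groups of 3, defined by age (10 or 20 weeks) and by the absence or presence of diabetes. Diabetic rats had received streptozocin, a beta cell toxin, at 65 mg/kg intravenously at 4 or at 14 weeks of age, and nondiabetic rats vehicle. Pellets were placed 3 days later, of insulin palmitate in diabetic rats and of palmitate vehicle in the others, and cortex was taken 6 weeks after the injection. Glucose in diabetic rats is labelled as 350 to 450 mg/dl. Insulin and streptozocin always went with diabetes, so their effects cannot be told apart from it, and the label of 10-week diabetic replicate 1 names a vehicle pellet. The rats were littermates of a strain not given in the sources used here, and no label ties an array to 1 rat, so p-values measure only the spread between these samples.

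The deposited signals are linear intensities that the authors scaled to the same trimmed mean (500.2) on every array. Correlations between arrays lay between 0.941 and 0.976. The 8 proximal tubule markers, which check the labelled tissue, summed to between 112500 and 134500 on every array. For the Gapdh control probe sets, the signal at the 3' end over that at the 5' end, a measure of RNA integrity, was 1.408 to 1.495 at 10 weeks and 1.42 to 2.086 at 20 weeks (exact two-sided permutation test of the log2 ratio, p = 0.013), with the highest value in 20-week nondiabetic replicate 1. For beta-actin the same ratio was larger, at 6.296 to 8.568 at 10 weeks and 6.871 to 11.37 at 20 weeks. It was highest in 20-week diabetic replicate 2 (11.37), with 11.19 in 20-week nondiabetic replicate 1 and 9.999 in 20-week diabetic replicate 3. This is whole cortex, so fewer cells of a type and less RNA per cell cannot be told apart.

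Interferons are cytokines released on viral infection and inflammation. Type I interferon acts through a transcription factor complex that includes Stat2 and Irf9 and binds the interferon-stimulated response element before antiviral effector genes, and interferon gamma acts at gamma-activated sites. Both raise the class I pathway, in which the immunoproteasome cuts proteins, the TAP transporter carries the peptides into the endoplasmic reticulum and tapasin loads them onto class I molecules with B2m. Class II molecules, with the invariant chain Cd74, present peptides mainly on dendritic cells, macrophages and B cells, and tubular epithelium can make them in inflammation.

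The RefSeq promoter table (build GRCr8) held 41 of the 47 genes, and the 250 bases before each start were searched on both strands for 4 motifs, with overlapping matches of different motifs all counted. The interferon-stimulated response element core (GAAA, any 2 bases, GAAA) was found before 17 of 41 members (41.5%) and before 3.41% of all 33469 promoters in the table. It stood before 7 of 9 effectors, 4 of 6 genes of the immunoproteasome, peptide transport and loading, 3 of 8 factors and sensors, 3 of 12 class I genes and none of the 6 class II genes. The gamma-activated site TTCNNNGAA was found before 8 members (19.5%, against 7.67% of all promoters), the CCAAT box CCAAT before 23 (56.1%, against 34%) and the TATA box TATAAA before 5 (12.2%, against 12.9%). All 6 class II genes held a CCAAT box. A match is a description of letters and not a bound site.

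The sequences below are those of genes on which the results turn: Tap2 and Irf3, the members called in diabetes, Rsad2 and Gbp2, effectors whose arrays did not overlap between the ages in nondiabetic rats, B2m, the shared class I chain, and RT1-Da, a class II chain. Each runs 5′ to 3′ in the direction of the gene up to the base before its start, and capitals mark a match to any of the 4 motifs on either strand. Tap2 lies at chr20:4652297-4652446 (minus strand), Irf3 at chr1:104616458-104616607 (plus), Rsad2 at chr6:48788121-48788320 (minus), Gbp2 at chr2:234005527-234005726 (plus), B2m at chr3:129549130-129549329 (plus) and RT1-Da at chr20:4515215-4515414 (plus).
Tap2: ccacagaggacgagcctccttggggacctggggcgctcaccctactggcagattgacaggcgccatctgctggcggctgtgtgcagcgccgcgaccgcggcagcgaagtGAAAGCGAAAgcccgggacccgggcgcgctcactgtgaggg
Irf3: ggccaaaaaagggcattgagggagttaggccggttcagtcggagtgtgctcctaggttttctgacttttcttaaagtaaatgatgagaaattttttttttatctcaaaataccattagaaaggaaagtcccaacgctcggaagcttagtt
Rsad2: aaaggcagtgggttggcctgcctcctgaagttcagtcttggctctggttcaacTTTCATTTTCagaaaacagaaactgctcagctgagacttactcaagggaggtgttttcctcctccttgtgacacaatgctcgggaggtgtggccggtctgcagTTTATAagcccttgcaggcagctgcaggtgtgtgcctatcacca
Gbp2: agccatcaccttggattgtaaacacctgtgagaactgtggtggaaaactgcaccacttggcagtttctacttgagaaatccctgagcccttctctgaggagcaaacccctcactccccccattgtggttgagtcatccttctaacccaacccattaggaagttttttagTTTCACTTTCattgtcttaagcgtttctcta
B2m: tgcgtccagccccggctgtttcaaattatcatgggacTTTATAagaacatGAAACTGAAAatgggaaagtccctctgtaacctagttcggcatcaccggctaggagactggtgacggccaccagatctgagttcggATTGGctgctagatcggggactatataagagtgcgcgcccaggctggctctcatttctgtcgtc
RT1-Da: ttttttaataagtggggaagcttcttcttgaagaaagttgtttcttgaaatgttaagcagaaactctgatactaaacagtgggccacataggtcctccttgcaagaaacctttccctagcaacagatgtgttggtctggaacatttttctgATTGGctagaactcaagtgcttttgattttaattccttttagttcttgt
In Tap2 the response element core began 41 bases before the start, in Gbp2 31 bases, in Rsad2 147 bases and in B2m 150 bases. The stretch printed for Irf3 held none of the 4 motifs. That of RT1-Da held only a CCAAT box on the reverse strand, 49 bases before the start.

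In diabetic rats 2 members passed the test over both ages: Tap2, a subunit of the peptide transporter, rose, and Irf3, the transcription factor that switches on interferon genes after viral sensing, fell. No other member passed over both ages, and no member at all passed at either age alone. The test was limma on log2 signals with Benjamini-Hochberg adjustment over 18625 probe sets, and a probe set was called at an adjusted p under 0.05. Over both ages 2 of 59 member probe sets were called, beside 4.47% of all probe sets (2.14% higher and 2.34% lower). At 10 weeks 0 were called (0.306% of all) and at 20 weeks 0 (2.84% of all). At an unadjusted p under 0.05, limma gave 1 member higher and 1 lower at 10 weeks, where 5.18% of all probe sets were higher and 5.67% lower at that level. At 20 weeks it gave 7 higher and 2 lower, against 8.48% and 8.33% of all. The median log2 difference of the members was 0.04 at 10 weeks and 0.19 at 20 weeks, beside -0.02 and -0.0043 over all probe sets. Diabetic arrays lay wholly above nondiabetic arrays in 3 members and wholly below in 2 at 10 weeks (7.47% and 9.52% of all probe sets), and in 7 and 2 at 20 weeks (10.1% and 10.9% of all). The share of members called was no larger than the background.

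The test of whether the response to diabetes differed between the ages (the interaction, 10 minus 20 weeks) gave 0 called members in limma, and 0 at an unadjusted p under 0.05, where 7.95% of all probe sets passed and 0% were called. No difference between the ages was therefore shown for any member.

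Tap2 (probe set 1368732_at) gave signals of 183, 128 and 127 in nondiabetic and 227, 189 and 210 in diabetic rats at 10 weeks, in the order of replicates 1 to 3, as for all values that follow. At 20 weeks the signals were 116, 116 and 165 in nondiabetic and 220, 206 and 227 in diabetic rats. All 3 diabetic arrays lay above all 3 nondiabetic arrays at each age. The log2 difference was 0.53 ± 0.21 (SE) at 10 weeks (limma adjusted p = 0.367), 0.74 ± 0.21 at 20 weeks (adjusted p = 0.0843) and 0.64 ± 0.15 over both ages, a 1.55-fold difference (adjusted p = 0.0302). The direction held in every fit, but with 1 array left out the call held in 3 of 12 fits, those without 10-week nondiabetic replicate 1, 10-week diabetic replicate 2 or 20-week nondiabetic replicate 3. The adjusted p reached 0.0733 without 10-week diabetic replicate 1, and 0.125 without both that array and 20-week nondiabetic replicate 1.

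Irf3 (1371560_at) gave 2672, 2471 and 2787 in nondiabetic and 2321, 2289 and 2417 in diabetic rats at 10 weeks. At 20 weeks it gave 2711, 2670 and 2494 against 2077, 2297 and 2044. The diabetic arrays all lay below the nondiabetic arrays at each age, and the difference was small against the level. It was -0.17 ± 0.08 on the log2 scale at 10 weeks (limma adjusted p = 0.449), -0.30 ± 0.08 at 20 weeks (adjusted p = 0.0652) and -0.23 ± 0.06 over both ages (adjusted p = 0.0315). With 1 array left out the call held in 3 of 12 fits, those without 10-week nondiabetic replicate 2, 20-week nondiabetic replicate 3 or 20-week diabetic replicate 2. The adjusted p was highest without 20-week diabetic replicate 3 (0.0771) and was 0.152 with arrays centred on their medians.

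**Figure D1:**
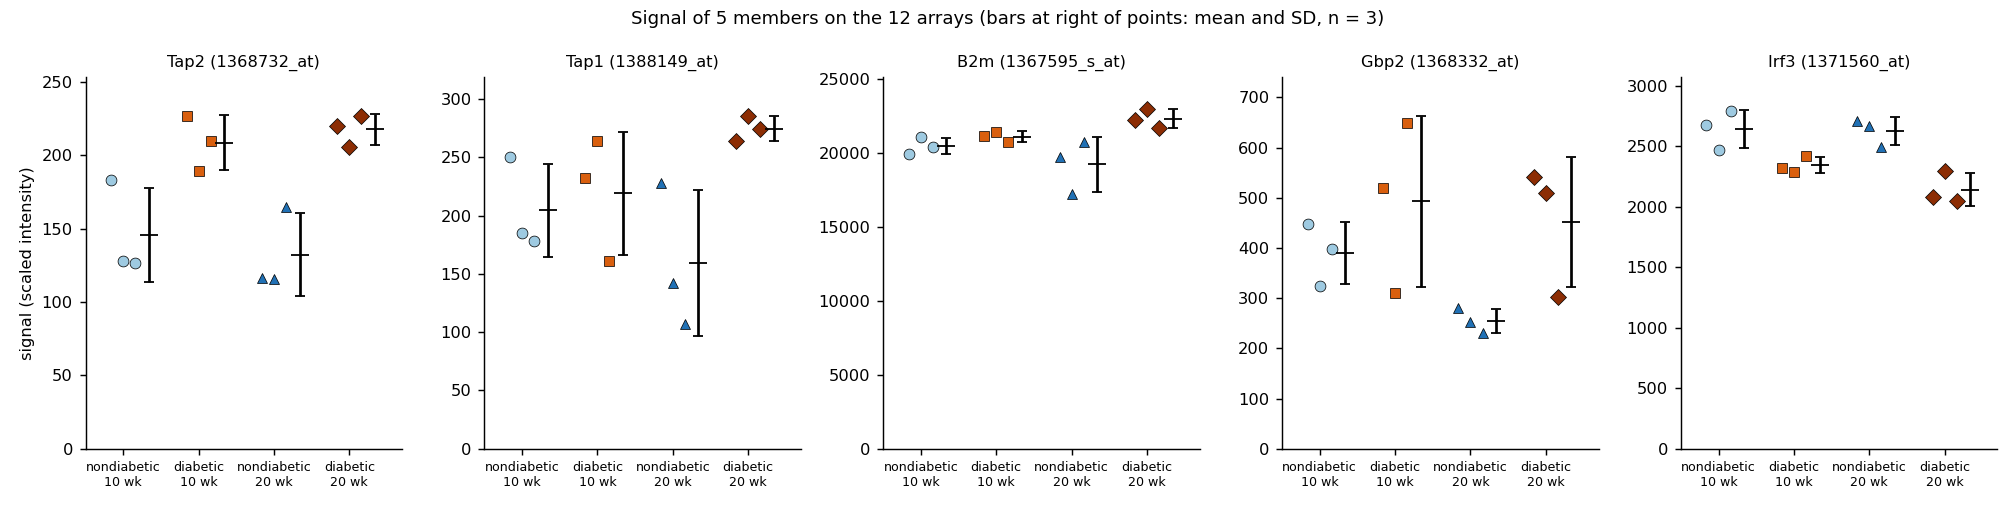
Signal of Tap2, Tap1, B2m, Gbp2 and Irf3 on each of the 12 arrays, on linear axes that start at 0, with mean and SD of 3 arrays at the right of each group. In Tap2 the 6 diabetic arrays lie above the nondiabetic arrays of the same age, in Irf3 they lie below them, and Tap1, B2m and Gbp2 are apart at 20 weeks alone.

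The other genes that cut and load peptides did not pass the test. At 20 weeks all 6 tested probe sets of this role (1 each of Psmb8, Psmb9, Psmb10, Tap1, Tap2 and Tapbp) had a positive diabetes difference, with a median of 0.33, and at 10 weeks 4 of 6 did, with a median of 0.08. The share of all probe sets with a positive difference was 49.3% at 20 weeks and 46.3% at 10 weeks. The 20-week median stayed positive in all 24 other settings, from 0.13 to 0.59. Psmb8, Psmb9 and Psmb10, the catalytic subunits of the immunoproteasome, had overlapping groups at both ages.

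Tap1 (1388149_at), the partner of Tap2 in the transporter, gave 250, 185 and 178 in nondiabetic and 233, 264 and 161 in diabetic rats at 10 weeks, where the groups overlapped. At 20 weeks it gave 228, 142 and 107 against 264, 286 and 274, with no overlap. The 20-week log2 difference was 0.86 ± 0.27 (limma adjusted p = 0.121). Without 20-week nondiabetic replicate 1, the array with the highest Gapdh ratio, it was 1.15 with an adjusted p of 0.0389. That was the only 1 of 12 fits leaving out an array that passed. Over such fits the 20-week difference was as low as 0.61 and the limma adjusted p reached 0.277. The 10-week difference of 0.09 turned to -0.01 without 10-week nondiabetic replicate 3 and to -0.06 without 10-week diabetic replicate 2, so it has no settled direction. The other probe set of Tap1 was dim.

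Tapbp (1369726_at), which encodes tapasin, gave 418, 364 and 489 in nondiabetic and 504, 548 and 444 in diabetic rats at 10 weeks, and 520, 510 and 540 against 577, 521 and 577 at 20 weeks. The groups overlapped at both ages. In nondiabetic rats its 20-week arrays all lay above the 10-week arrays (0.31 ± 0.13, limma adjusted p = 0.56).

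Among class I genes, B2m had 2 probe sets that were apart in the same direction at 20 weeks. The first (1367595_s_at) gave 19930, 21050 and 20390 in nondiabetic and 21140, 21420 and 20710 in diabetic rats at 10 weeks, and 19720, 17180 and 20740 against 22240, 22960 and 21670 at 20 weeks. The second (1371440_at) gave 7867, 9220 and 8393 against 7404, 8699 and 9032 at 10 weeks, and 8335, 7583 and 7909 against 9343, 8803 and 10160 at 20 weeks. At 10 weeks both overlapped. The 20-week log2 differences were 0.22 ± 0.07 (limma adjusted p = 0.148) and 0.25 ± 0.09 (adjusted p = 0.193), neither past the threshold.

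RT1-T24-4 (1389734_x_at), a class I gene, gave 1627, 1776 and 1627 in nondiabetic and 1831, 2078 and 1791 in diabetic rats at 10 weeks, and 1732, 1422 and 1568 against 1882, 1822 and 2896 at 20 weeks. Diabetic arrays were higher without overlap at each age, and the 20-week difference was 0.45 ± 0.15 (limma adjusted p = 0.144). It fell to 0.24 without 20-week diabetic replicate 3, the array at 2896.

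RT1-S3, another class I gene, had 4 probe sets, and no group of diabetic arrays stood apart from its nondiabetic group in any of them. Its probe set with the smallest p (1388212_a_at) gave 827, 930 and 859 against 929, 899 and 850 at 10 weeks, and 881, 766 and 607 against 977, 828 and 835 at 20 weeks, a 20-week difference of 0.24 ± 0.13 (limma adjusted p = 0.381). At 20 weeks 1388164_at gave 948, 786 and 535 against 820, 848 and 596, 1371123_x_at gave 635, 542 and 416 against 415, 423 and 508, and 1388213_a_at gave 392, 330 and 270 against 341, 284 and 308. At 10 weeks 1388164_at gave 634, 786 and 786 against 1022, 794 and 677, 1371123_x_at gave 357, 584 and 393 against 535, 472 and 384, and 1388213_a_at gave 355, 308 and 317 against 343, 333 and 285. The 4 probe sets did not share a direction. At 20 weeks 4 of 19 tested class I probe sets were higher in diabetic rats without overlap and 1 was lower. The shares of all probe sets were 10.1% and 10.9%. The lower one, RT1-A3 (1371213_at), gave 135, 101 and 117 against 60.7, 94.8 and 96.5 (-0.51 ± 0.40, limma adjusted p = 0.576). Over all 19 tested class I probe sets, 15 had a positive diabetes difference at 20 weeks and 8 at 10 weeks, with medians of 0.21 and -0.03. The 10-week sign was not settled: 12 were positive with quantile normalization (median 0.03), 13 with median centring (median 0.08, where the median of all probe sets was 0.09), and 11 without 10-week nondiabetic replicate 2, 10-week nondiabetic replicate 3 or 10-week diabetic replicate 1 (medians 0.04, 0.01 and 0.01). Several class I RT1 genes are close copies of each other. Several probe sets carry the suffix that the array maker gives to probes shared between transcripts, so the gene behind an RT1 signal is uncertain.

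**Figure D2:**
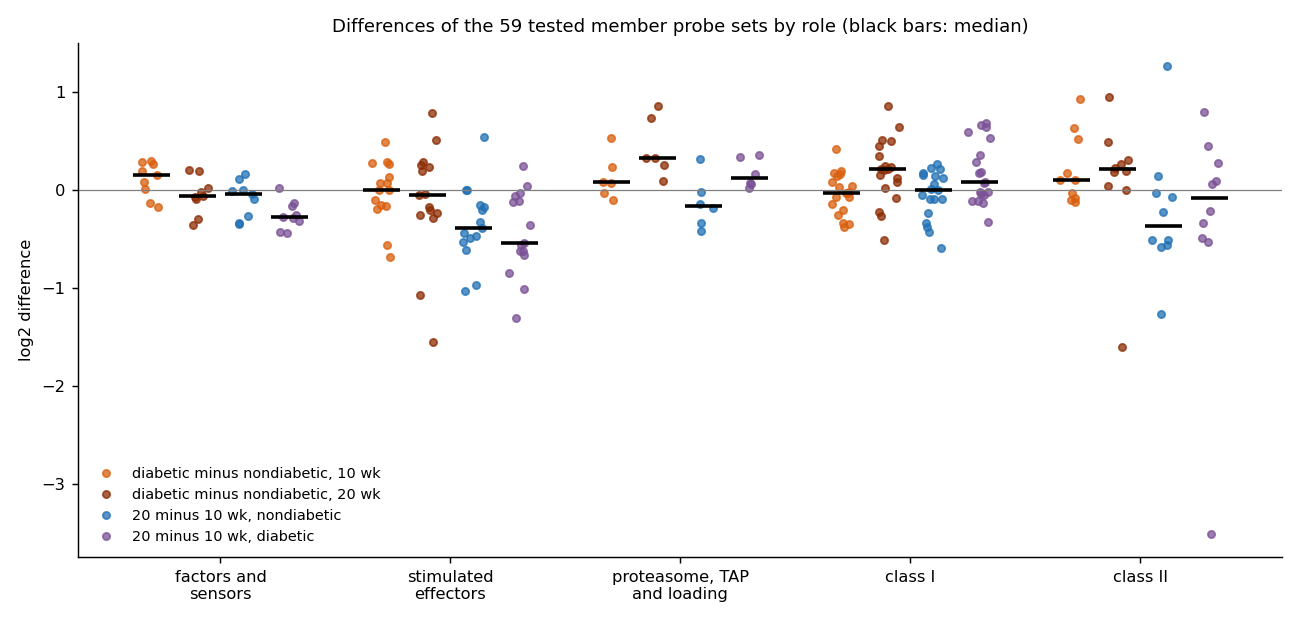
Log2 differences of the 59 tested member probe sets by role, for diabetes at each age and for age in each state, with 1 point per probe set and a black bar at the median. Peptide processing and loading lies above 0 in diabetes at 20 weeks (median 0.33), and the effectors lie mostly below 0 in both age comparisons (medians -0.38 and -0.54).

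Markers of other cell types also differed between diabetic and nondiabetic rats. Of 16 leukocyte and macrophage markers 15 were tested, and 13 had a positive diabetes difference at 10 weeks and 14 at 20 weeks, with medians of 0.16 and 0.39. Their summed signal was 12420 to 14160 in nondiabetic and 13500 to 14850 in diabetic rats at 10 weeks, and 10550 to 16170 against 14460 to 21360 at 20 weeks. The 20-week nondiabetic median was 15410, inside the diabetic range. Lyz2 alone gave 5179 to 11510 over all arrays, a large part of each sum. Csf1r, a macrophage growth factor receptor, was the single marker of this list called over both ages (0.36 ± 0.09, limma adjusted p = 0.0453, past the threshold in 1 of 12 fits that leave out an array). Of 15 T, B and NK cell markers 3 were tested, 10 were dim and 2 had no probe set. Those 3 summed to 392.9 to 421.4 and 399.8 to 579.2 at 10 weeks, and to 370.8 to 611.6 and 541.7 to 784.2 at 20 weeks, nondiabetic before diabetic. Of 7 dendritic cell markers only Itgax was tested (187 to 489 over all arrays), 3 were dim and 3 had no probe set. Of 5 fat markers 3 were tested, and all 3 had positive differences (median 1.78 over both ages, none called). Their sums were 164.1 to 857.4 and 605.7 to 1456 at 10 weeks and 539.2 to 738.7 and 921.1 to 1821 at 20 weeks, nondiabetic before diabetic. The differences over both ages were 0.24 ± 0.15 for Adipoq, 1.78 ± 0.89 for Cidec and 2.83 ± 0.78 for Fabp4. In 10-week nondiabetic replicate 1, Fabp4 gave only 1.75 and Cidec 4.49. Replicates 2 and 3 of that group gave 80.8 and 85.5 for Fabp4 and 213 and 569 for Cidec. That 1 array thus weighs on both differences and on the lowest sum.

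All 5 tested podocyte markers of a list of 6 had negative differences at each age, with sums of 5970 to 6706 and 4682 to 6122 at 10 weeks and 5527 to 6000 and 4512 to 5030 at 20 weeks, nondiabetic before diabetic. Over both ages Nphs1 (-0.48 ± 0.10, limma adjusted p = 0.0157) and Ptpro (-0.40 ± 0.10, adjusted p = 0.0339) fell. The call of Nphs1 held in 12 of 12 fits that leave out an array and that of Ptpro in 5 of 12, and both were lost without 10-week diabetic replicate 1 and 20-week nondiabetic replicate 1 together (adjusted p = 0.0562 and 0.0928). Of 9 endothelial markers tested 1 was called, Vwf, a clotting protein of endothelial cells, which was lower over both ages (-1.78 ± 0.34, adjusted p = 0.0114, called in 12 of 12 such fits). It was also called at 20 weeks (-1.99 ± 0.49, limma adjusted p = 0.0482). Vwf gave 1181, 743 and 562 in nondiabetic and 494, 181 and 207 in diabetic rats at 10 weeks, and 654, 1329 and 304 against 177, 190 and 125 at 20 weeks. Of 4 distal nephron markers tested 1 was called, Aqp2, which was higher over both ages (0.55 ± 0.09, limma adjusted p = 0.00391). It was also called at 10 weeks (0.68 ± 0.12, adjusted p = 0.0433). Of the 8 proximal tubule markers 1 was called, Slc13a3, which was lower over both ages (-0.29 ± 0.06, adjusted p = 0.0166) and at 20 weeks (-0.44 ± 0.09, limma adjusted p = 0.019). No marker's own part in the differences of Tap1, Tap2, Irf3, B2m, Mx2 or the RT1 genes was tested.

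Among the effectors, no probe set was called in diabetes at either age or over both (0 of 15). The median log2 difference was 0.01 at 10 weeks and -0.05 at 20 weeks, with 8 and 6 of 15 positive.

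Gbp2 (1368332_at), an interferon-inducible GTPase, gave 447, 324 and 398 in nondiabetic and 519, 310 and 649 in diabetic rats at 10 weeks. At 20 weeks it gave 280, 252 and 231 against 542, 509 and 303, with no overlap. The difference at 20 weeks was 0.79 ± 0.27 (limma adjusted p = 0.156), and over both ages 0.54 ± 0.19 (adjusted p = 0.15, and 0.0473 without 10-week diabetic replicate 2, the lowest diabetic array at 10 weeks). That was the only 1 of 12 fits leaving out an array that passed over both ages, where the adjusted p reached 0.29.

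Ifit2, which binds viral RNA, had 2 probe sets. In 1379568_at the signals were 232, 292 and 208 in nondiabetic and 257, 215 and 208 in diabetic rats at 10 weeks, and 153, 129 and 96.3 against 195, 152 and 187 at 20 weeks. In 1384180_at they were 414, 390 and 375 against 535, 370 and 533 at 10 weeks, and 376, 246 and 249 against 345, 341 and 293 at 20 weeks. Diabetic and nondiabetic arrays overlapped in both probe sets at each age, and the larger 20-week difference was 0.52 ± 0.21 (limma adjusted p = 0.245).

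Mx2, a dynamin-like antiviral GTPase, also had 2 probe sets, and both spread widely within groups. In 1387283_at the signals were 673, 502 and 327 in nondiabetic and 505, 270 and 195 in diabetic rats at 10 weeks, and 554, 719 and 113 against 139, 134 and 95.4 at 20 weeks. The groups overlapped at both ages. At 10 weeks diabetic replicate 1 lay above nondiabetic replicates 2 and 3, and at 20 weeks nondiabetic replicate 3 lay among the diabetic arrays. The 20-week difference was -1.55 ± 0.57 (limma adjusted p = 0.186). Without 20-week nondiabetic replicate 3, the array at 113, it was -2.38 (adjusted p = 0.0109), and over both ages -1.12 became -1.53 (adjusted p = 0.00732). In each of these comparisons that was the only 1 of 12 fits leaving out an array that passed. Over such fits the 20-week difference shrank to as little as -1.04. The limma adjusted p reached 0.478 at 20 weeks and 0.288 over both ages. In 1387283_at replicate 3 was the lowest array of each group. It gave 327 in 10-week nondiabetic, 195 in 10-week diabetic, 113 in 20-week nondiabetic and 95.4 in 20-week diabetic rats. The fit without 20-week nondiabetic replicate 3 kept 20-week diabetic replicate 3, so its larger fall may partly reflect the replicate number. That part was not tested. A fit with the number as a replicate block is given in the section on processing. The other probe set, 1369202_at, is given below with the replicate numbers.

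Of the factors and sensors, Irf3 was the only one called. Irf8, a factor of myeloid cells, gave 390, 316 and 333 in nondiabetic and 431, 375 and 456 in diabetic rats at 10 weeks, and 311, 265 and 247 against 319, 355 and 269 at 20 weeks, with overlap at both ages (over both ages 0.24 ± 0.11, limma adjusted p = 0.28). Stat2, part of the complex that type I interferon activates, had 2 probe sets with overlapping groups at both ages. In 1373670_at it gave 398, 334 and 419 against 406, 384 and 427 at 10 weeks, and 394, 554 and 364 against 338, 430 and 259 at 20 weeks. In 1389571_at it gave 297, 370 and 371 against 340, 355 and 461, and then 424, 304 and 320 against 336, 373 and 319. The remaining factors and sensors tested (Irf1, Irf7, Irf9 and Eif2ak2) had diabetes differences between -0.13 and 0.29 at 10 weeks and between -0.09 and 0.20 at 20 weeks. Ifih1, a sensor of viral RNA, ranged from 33.4 to 99.4 over the 12 arrays and was too dim to test.

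Effector signals were mostly lower at 20 than at 10 weeks in rats of either state, though none passed the test. The age comparison in nondiabetic rats was part of the study's design, and those in diabetic rats and over both states were added after the values were seen. In nondiabetic rats 13 of 15 effector probe sets were lower at 20 weeks (median log2 difference -0.38), and in diabetic rats 13 of 15 (median -0.54), from arrays that the 2 comparisons do not share. Over all probe sets 51% were higher at 20 weeks in nondiabetic and 53.2% in diabetic rats, with medians of 0.01 and 0.02. The 20-week arrays lay wholly below the 10-week arrays in 4 of 15 effector probe sets in nondiabetic rats (5.7% of all probe sets) and in 7 of 15 in diabetic rats (9.9% of all).

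In limma 0 members were called for age in nondiabetic rats (0% of all probe sets), 0 in diabetic rats (0.66% of all) and 0 over both states (0.601% of all). At an unadjusted p under 0.05 there were 6 members lower and 1 higher in nondiabetic rats, 8 and 1 in diabetic rats, and 11 and 1 over both states. The shares of all probe sets at that level were 4.23% lower and 4.38% higher in nondiabetic rats, 6.57% and 7.06% in diabetic rats, and 7.01% and 7.36% over both states. The 6 in nondiabetic rats were all effectors.

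Rsad2 (1370913_at), also called viperin, gave 1074, 1105 and 1179 at 10 weeks and 1051, 849 and 707 at 20 weeks in nondiabetic rats. In diabetic rats it gave 1206, 1010 and 1161, and then 604, 786 and 817. The 20-week arrays lay below the 10-week arrays in each state. The differences were -0.38 ± 0.15 (limma adjusted p = 0.544), -0.62 ± 0.15 (adjusted p = 0.0909) and -0.50 ± 0.11 over both states (adjusted p = 0.0586). Over both states it passed the threshold in 4 of 11 other settings and in 1 of 12 fits that leave out an array, the one without 20-week nondiabetic replicate 1 (adjusted p = 0.0409).

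Mx1 (1371015_at), an antiviral GTPase of the nucleus in rodents, gave 335, 299 and 414 at 10 weeks and 274, 223 and 226 at 20 weeks in nondiabetic rats. In diabetic rats it gave 415, 269 and 428, and then 231, 244 and 147. There was no overlap between the ages in either state, with differences of -0.53 ± 0.23 and -0.85 ± 0.23, and -0.69 ± 0.17 over both states (limma adjusted p = 0.0849).

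In Ifit2, whose signals are given above, 1379568_at was lower at 20 weeks without overlap in each state, by -0.97 ± 0.21 in nondiabetic and -0.35 ± 0.21 in diabetic rats (-0.66 ± 0.15 over both, limma adjusted p = 0.0728). In 1384180_at the differences were -0.47 ± 0.19 and -0.54 ± 0.19, with no overlap in diabetic rats alone. Its 20-week nondiabetic arrays also enter the diabetes difference at 20 weeks, so those values are not independent.

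Isg15 (1382314_at), a ubiquitin-like protein joined to other proteins in interferon-treated cells, gave 453, 414 and 287 at 10 weeks and 468, 229 and 257 at 20 weeks in nondiabetic rats, which overlapped. In diabetic rats it gave 390, 364 and 504, and then 274, 271 and 244, without overlap (-0.66 ± 0.25, limma adjusted p = 0.273). Usp18, which removes Isg15 from proteins, had a difference of -0.83 ± 0.31 over both states (adjusted p = 0.243). Irf7, the factor that amplifies type I interferon, was lower at 20 weeks without overlap in diabetic rats (599, 540 and 543 against 373, 396 and 477; -0.44 ± 0.16, adjusted p = 0.239). Irf8 was lower without overlap in each state, by -0.34 ± 0.16 in nondiabetic and -0.43 ± 0.16 in diabetic rats. The 2 effectors with a positive difference were Ifit3 and Oasl in nondiabetic rats and Ifi27 and Oasl in diabetic rats.

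The Gapdh 3'/5' ratio was higher at 20 weeks, as given above. With its log2 value as a covariate the median effector difference was -0.55 in nondiabetic and -0.67 in diabetic rats. It was -0.62 and -0.27 without the 2 arrays in doubt, 10-week diabetic replicate 1 and 20-week nondiabetic replicate 1. Over the 24 other settings it lay between -0.62 and -0.22 in nondiabetic rats and between -0.67 and -0.27 in diabetic rats, the other scalings included.

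**Figure D3:**
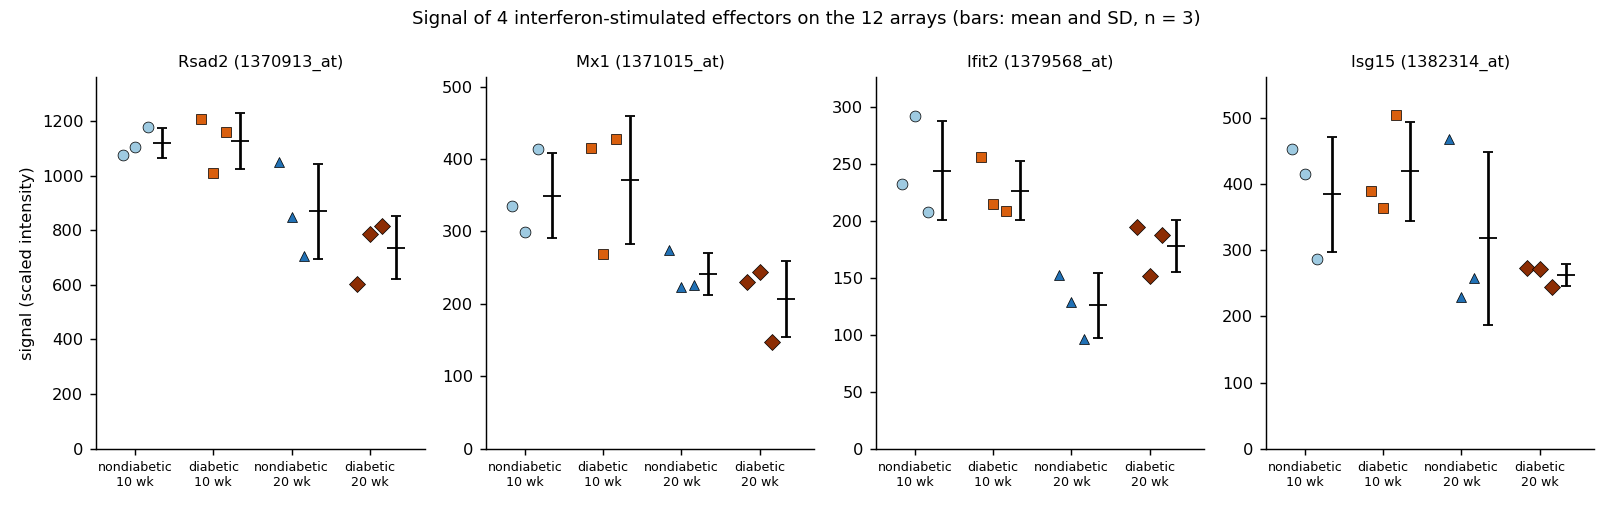
Signal of Rsad2, Mx1, Ifit2 (1379568_at) and Isg15 on the 12 arrays, on linear axes that start at 0, with mean and SD of 3 arrays beside each group. In Rsad2, Mx1 and Ifit2 the 20-week arrays lie below the 10-week arrays of the same state, and in Isg15 only those of diabetic rats do.

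Class II genes showed no called difference in any comparison, and their signals spread widely within groups. Of 10 tested class II probe sets, 6 had a positive diabetes difference at 10 weeks and 8 at 20 weeks, with medians of 0.10 and 0.21. Over both ages 9 did, with a median of 0.16. RT1-Da (1370883_at), an alpha chain, gave 7624, 7071 and 4422 in nondiabetic and 6138, 8101 and 4463 in diabetic rats at 10 weeks, and 6187, 3855 and 3148 against 6601, 6151 and 3501 at 20 weeks. In nondiabetic rats the age difference was -0.56 ± 0.31 (limma adjusted p = 0.626). Replicate 3 was the lowest array of all 4 groups.

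RT1-Ba, an alpha chain of the other class II pair, had 2 tested probe sets. In 1370822_at the signals were 2265, 1226 and 1213 in nondiabetic and 1715, 1713 and 1654 in diabetic rats at 10 weeks, and 1307, 1000 and 774 against 1607, 1277 and 787 at 20 weeks (age over both states -0.55 ± 0.20, limma adjusted p = 0.227). In 1377334_at they were 2306, 2808 and 1424 against 1711, 3202 and 1304, and then 3202, 2180 and 1783 against 3257, 2896 and 1936. The probe sets of this gene thus differed in the sign of the age difference. Its 2 dim probe sets were not tested.

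RT1-Db1, a beta chain, gave 2264, 2295 and 1180 in nondiabetic and 1832, 2494 and 1144 in diabetic rats at 10 weeks in 1370383_s_at, and 1887, 1294 and 877 against 2240, 2094 and 1263 at 20 weeks. In 1370382_at it gave 700, 23.9 and 94.5 against 473, 179 and 129, and then 158, 141 and 24.8 against 199, 179 and 112. Diabetic and nondiabetic arrays overlapped in both probe sets at each age.

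The array-to-array spread of class I and class II genes followed the replicate number of the labels in several probe sets. What that number marks is not given in the sources used here. An F test of the number beside the 4 group means, added after the values were seen, called 6 of 18625 probe sets in limma (0.0322%), of which 2 were members, RT1-CE12 and a probe set of Mx2. Both were called in all 12 fits that leave out an array. At an unadjusted p under 0.05 there were 15 of 59 members beside 5.22% of all probe sets, and 12 of the 15 were class I or class II. The 50 lowest p-values of the array held 5 members.

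RT1-CE12 (1388236_x_at), a class I gene, had the lowest p of all probe sets (limma adjusted p = 0.000395). It gave 693, 1900 and 3306 in 10-week nondiabetic, 900, 2628 and 4421 in 10-week diabetic, 974, 2115 and 3345 in 20-week nondiabetic and 961, 2819 and 3050 in 20-week diabetic rats. All 4 arrays numbered 1 lay below 1000, and all others at 1900 or above.

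Mx2 (1369202_at, limma adjusted p = 0.000542) gave 2561, 1421 and 254 in 10-week nondiabetic, 1827, 1435 and 110 in 10-week diabetic, 1941, 2460 and 69.3 in 20-week nondiabetic and 877, 650 and 62.5 in 20-week diabetic rats. The 4 arrays numbered 3 lay between 62.5 and 254, and the other 8 between 650 and 2561. The SE of its diabetes difference was 1.48, against a median SE of 0.184 over all probe sets. That fit takes no account of the replicate number, so it could hardly measure group differences of this probe set.

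RT1-N2 (1387839_at), a class I gene, stood high in all arrays numbered 3 (302, 336, 323 and 311, in the order of groups used above) and lay between 13 and 91.6 in the other 8, but did not pass the test (limma adjusted p = 0.319). In RT1-Db1 (1370383_s_at) the arrays numbered 3 were the 4 lowest, at 877 to 1263, against 1294 to 2494 in the others (adjusted p = 0.068).

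RT1-Bb, the beta chain paired with RT1-Ba, had 2 probe sets with opposite patterns. In 1371033_at the arrays numbered 1 at 10 weeks gave 2170 (nondiabetic) and 1570 (diabetic), while the other 10 lay between 8.15 and 157. In 1371065_at the same 2 arrays gave 62.8 and 114, while the other 10 lay between 501 and 1194. RT1-Db1 (1370382_at) was also highest in these 2 arrays, at 700 and 473, with the others at 23.9 to 199. These arrays belong to different groups of the diabetes comparison at 10 weeks and to the same age, so they weigh on the age differences of these probe sets. In 1371033_at the remaining 10-week diabetic arrays, at 108 and 73.8, also lay above the 20-week diabetic arrays, at 28.3, 36.7 and 8.15.

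**Figure D4:**
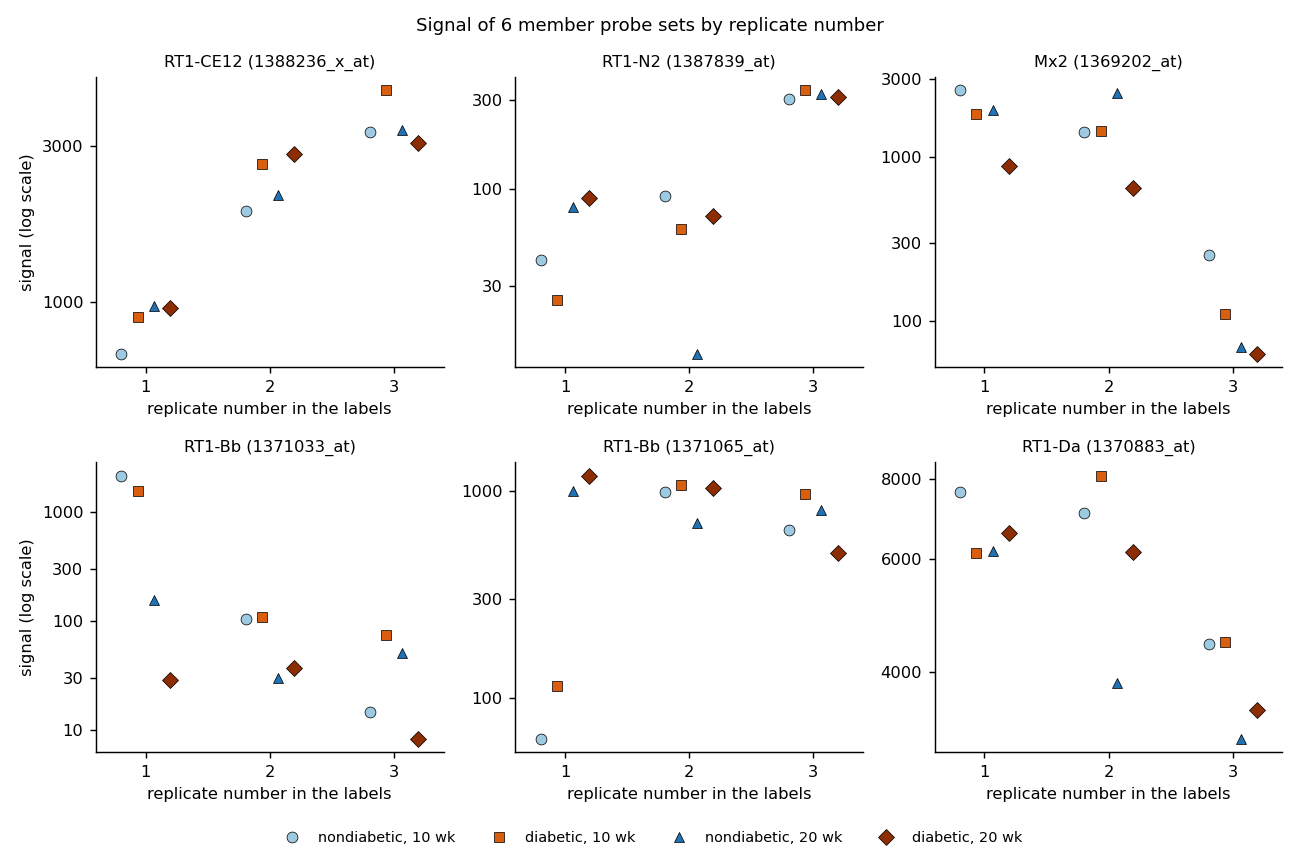
Signal of 6 member probe sets by the replicate number of the labels, on log axes, with 1 point per array and the 4 groups marked by colour and shape. RT1-CE12 is low in the 4 arrays numbered 1, RT1-N2 is high and Mx2 low in those numbered 3, and the 2 probe sets of RT1-Bb are reversed in both 10-week arrays numbered 1.

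Cd74 (1367679_at), the invariant chain, gave 9688, 8867 and 6902 in nondiabetic and 8141, 11860 and 7548 in diabetic rats at 10 weeks, and 12680, 7084 and 5648 against 12350, 10520 and 6791 at 20 weeks. It was set against 4 other genes over the 12 arrays on the log2 scale, chosen after the values were seen, with permutation p-values adjusted over the 4. With RT1-Da, Pearson's r was 0.847 (permutation p = 0.00094, adjusted 0.00376) and Spearman's rho 0.832 (p = 0.00148, adjusted 0.00592). The r was 0.84 without the 2 arrays farthest from the median of Cd74, and 0.952 for deviations from the group means.

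With Itgax, an integrin of dendritic cells and macrophages, r was 0.706 (permutation p = 0.00966, adjusted 0.0193) and rho 0.748 (p = 0.00742, adjusted 0.0148), with r of 0.552 without the 2 farthest arrays and 0.775 within groups. With Ciita, the factor that switches on class II genes, r was 0.515 (permutation p = 0.0893, adjusted 0.119) and rho 0.524 (p = 0.0851, adjusted 0.113). With the pan-leukocyte gene Ptprc, r was 0.203 (permutation p = 0.527, adjusted 0.527) and rho 0.126 (p = 0.7, adjusted 0.7), and neither relation passed the threshold. The remaining r values, without the 2 farthest arrays and within groups, were 0.558 and 0.662 for Ciita and -0.00559 and 0.0577 for Ptprc. The arrays share replicate numbers, so these points are not free of the pattern described above.

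**Figure D5:**
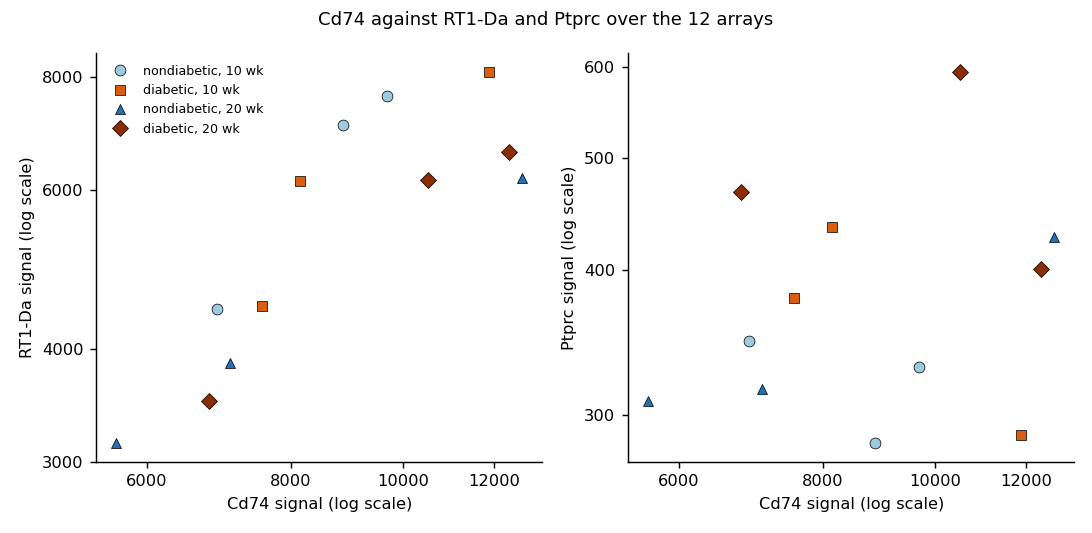
Signal of Cd74 against RT1-Da (left) and Ptprc (right) on log axes, with 1 point for each of the 12 arrays and the groups marked by colour and shape. RT1-Da is higher where Cd74 is higher (r = 0.847), and Ptprc shows no such order (r = 0.203).

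Other genes of the pathway were taken from a list of 79, of which 56 were tested, 8 were dim and 15 had no probe set here. In diabetes 1 was called higher at 10 weeks, 1 at 20 weeks and 2 over both ages, and none lower (0.306%, 2.84% and 4.47% of all probe sets were called). Cxcl11, an interferon-inducible chemokine, was the one called at each age, with 453, 516 and 646 in nondiabetic and 1188, 1479 and 1161 in diabetic rats at 10 weeks and 761, 540 and 710 against 1681, 1959 and 1772 at 20 weeks (1.25 ± 0.16 and 1.44 ± 0.16, limma adjusted p = 0.00827 and 0.000973). At 10 weeks its call was lost without nondiabetic replicate 2 (adjusted p = 0.0535). Azgp1, a secreted protein with a class I fold, was the other called over both ages (1.24 ± 0.25, adjusted p = 0.016, and 0.0778 without the 2 arrays in doubt). Its signals were 111, 267 and 354 in nondiabetic and 666, 472 and 628 in diabetic rats at 10 weeks, and 210, 322 and 425 against 658, 702 and 572 at 20 weeks. None of the 56 was called in the interaction or in any age comparison.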

How the data were processed

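The values the authors deposited are signal intensities on a linear scale, 1 per probe set, from GCOS per the submitters' processing notes; for its version, summary method and detection calls no source used here gives an entry. Each array had a mean signal of 500.2 after trimming 2% at each end, so a change common to most transcripts would be scaled away. Of 31099 probe sets, 57 controls were left out. Signals under 1 (424 values) were set to 1, log2 was taken, and the 40% with the lowest mean log2 signal were left out (limit, geometric mean 70.9).

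In limma 3.58.1 (R 4.3.3), the fit had 4 group means over all 12 arrays, 8 residual degrees of freedom and an intensity trend in eBayes. Tests were two-sided, with Benjamini-Hochberg adjustment over 18625 probe sets. The model was checked on simulated data. The number of arrays limits the precision. The 5 comparisons were diabetes at each age and over both ages, their interaction, and age in nondiabetic rats, and 2 age comparisons were added after seeing the data. Correlations used 100000 permutations, two-sided.

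Members and lists were chosen with earlier results of these data known. Given in full were called members and, by role, those with the smallest p up to 3 genes. Rsad2, Mx1, Isg15, Usp18, Irf7, RT1-CE12, RT1-N2, RT1-Bb and Cd74 were added after their values were seen. Lists used the brightest probe set of a gene. Names came from the array annotation updated through RefSeq (20832 probe sets name 1 gene, 436 several, 9831 none here), and RT1-A kept its annotated symbol. Alternatives were other scalings, filters, an offset of 16, variance models, array weights, fits of 2 groups, a replicate block, the Gapdh ratio as a covariate, and arrays left out.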

Additional observations from a re-analysis of the deposited data

How the results depend on the processing

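Leaving out 1 array at a time, the number of called members ranged from 0 to 3 for diabetes over both ages (2 with all arrays), from 0 to 1 at 20 weeks (0 with all arrays) and from 0 to 1 for age over both states (0 with all arrays), and it stayed at 0 for diabetes at 10 weeks, the interaction, age in nondiabetic rats and age in diabetic rats. Over both ages the number was 1 with median centring, with no filter on dim probe sets, with 60% of the probe sets left out and with no intensity trend, and 0 without both doubted arrays. It was 1 at 20 weeks with 60% left out (Irf3). For age in diabetic rats it was 1 with median centring and with array weights, and for age over both states it was 1 with median centring, with 60% left out, with a robust variance and with array weights (Rsad2 in each). The causes were not tested. The 10-week difference of Tap1 turned to -0.0051 and -0.0633 without 1 array each and ranged up to 0.2948; no other reported difference of a named gene changed sign. Tap2 missed the threshold with no filter (adjusted p = 0.0577) and could not be tested with 60% left out; Irf3 missed it with median centring (-0.20, adjusted p = 0.152) and with no intensity trend. Median centring moved the median over all probe sets of the interaction to 0.14.

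Replicate numbers are shared by the groups, but deviations from the group means of same-numbered arrays correlated between -0.151 and 0.149, so the numbers were not taken to pair the samples; 7 of 12 arrays correlated best with an array of their own number. With the number as a replicate block, limma called 2 members over both ages, Tap2 and Mx2 (1387283_at, adjusted p = 0.0444), while Irf3 missed the threshold (adjusted p = 0.0562), and 0 in each other comparison.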

Other observations

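No member met the rules for a closer look: none had a called interaction or groups apart in opposite directions at the 2 ages, and groups of 3 arrays are too small for a test of outliers.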
